A study of Mus musculus with 18 samples.

Results

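The 33 genes described here are astrocyte marker genes, chosen as every row of the deposited expression table whose gene name is on a list of such markers. All 33 were found among 29942 gene names, and all 33 were among the 13975 genes expressed highly enough to be tested. Expression had been measured by sequencing of polyA RNA from the striatum of both hemispheres in 18 libraries. The mice, of strain 129Sv/Jae S4, were siblings matched for age and sex (neither is stated), were housed in groups, and have no engineered allele in the labels. In 3 of the 6 groups, sampled on days 1, 7 and 21, the mice had received D-amphetamine hemisulfate intraperitoneally at 10 ml/kg, 7 mg/kg in total per day. The other 3 groups, sampled on the same days, had received the vehicle, 0.9% saline, by the same route. Each group held 3 libraries. The titles number these as replicates without saying that each is a separate mouse, so p-values measure the spread between these libraries, which may in part be technical. The questions addressed are whether the astrocyte genes differ with amphetamine on each day, and whether the genes of the reactive state, Gfap and Vim, differ from the other 31, called homeostatic here.

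Astrocytes take up glutamate released at synapses, convert it to glutamine, buffer water and ions at their endfeet on blood vessels, and are joined to each other by gap junctions. After injury, inflammation or strong stimulation they can become reactive, a state known for thicker processes and more intermediate filament protein. In the healthy striatum GFAP is sparse compared with the hippocampus or white matter, and striatal astrocytes are more reliably marked by their transporters and enzymes. Vimentin is less specific, because endothelial and ependymal cells and microglia make it too.

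The 250 bases before the annotated start are shown for the members with the widest and the narrowest spread between libraries of a group (Gfap and Slc1a2) and for the member with the smallest unadjusted p for amphetamine on any single day (F3). The sequences are RefSeq promoters of GRCm38.p6, a later build than the one used for the expression table. Capitals mark matches to the AP-1 motif TGANTCA, searched on both strands.
Gfap promoter, chr11:102897201-102897450, minus strand: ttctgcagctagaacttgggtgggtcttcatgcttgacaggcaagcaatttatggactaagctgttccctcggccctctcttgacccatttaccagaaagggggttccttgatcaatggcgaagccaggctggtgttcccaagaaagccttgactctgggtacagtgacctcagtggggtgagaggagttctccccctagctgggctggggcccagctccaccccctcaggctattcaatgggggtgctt
F3 promoter, chr3:121723287-121723536, plus strand: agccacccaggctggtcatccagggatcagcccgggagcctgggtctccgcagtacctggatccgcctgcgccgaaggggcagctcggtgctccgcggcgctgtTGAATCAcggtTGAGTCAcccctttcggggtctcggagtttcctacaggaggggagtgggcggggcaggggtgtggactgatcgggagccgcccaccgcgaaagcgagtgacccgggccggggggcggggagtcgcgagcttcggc
Slc1a2 promoter, chr2:102706188-102706437, plus strand: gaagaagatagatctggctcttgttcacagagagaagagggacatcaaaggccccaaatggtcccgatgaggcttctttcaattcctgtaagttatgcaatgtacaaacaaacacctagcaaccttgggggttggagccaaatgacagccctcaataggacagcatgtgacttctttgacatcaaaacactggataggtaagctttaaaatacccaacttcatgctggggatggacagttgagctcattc
The F3 window held TGAATCA at 146 to 140 bases and TGAGTCA at 135 to 129 bases before the start, and the other two windows held no match. Promoters were listed for 30 of the 33 members, with Ppap2b under its current symbol Plpp3 and without Aqp4, Sox9 and Clu, which gave 39 promoters in all. The AP-1 motif was held by 2 of these 39 (F3 and Gja1), against 6.75% of 32851 mouse promoters of this length. The cyclic AMP response element TGACGTCA was held by 1 of 39 (Dio2), against 1.55% of all promoters. The STAT motif TTCNNNGAA was held by 5 of 39 (Acsbg1, Aldoc, Ntsr2, Pla2g7 and Slc1a3), against 7.02% of all promoters. No member held more than 1 of these motifs, so no matches to different motifs overlap in members. The motifs were chosen with results of these data known, and a match describes the letters only.

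Levels are FPKM, fragment counts scaled to transcript length and to the mapped fragments of the library, and so can be compared between genes per length. Differences are given as amphetamine minus saline on the log2(FPKM + 1) scale, where 1 would be a doubling of a well expressed gene and where changes of low genes are understated. They were tested with limma, fitted once to all 13975 genes whose mean over the libraries was 1 FPKM or more, and a gene was called when its p, adjusted over all these genes by the Benjamini-Hochberg method, was under 0.05. Absolute depth was unknown. Depth relative to the deepest library ran from 0.652 to 1, and the amphetamine and saline group means were 0.811 and 0.884 (day 1), 0.822 and 0.894 (day 7) and 0.765 and 0.873 (day 21). The tissue label was checked with 8 markers of striatal projection neurons, among them Ppp1r1b, Penk, Adora2a, Drd1a and Drd2, and 8 of 8 were detected in all 18 libraries, with summed levels of 3383 to 4231 FPKM. The 5 astrocyte-defining genes (Aldh1l1, Gja1, Aqp4, Slc1a3, Slc1a2), which are members themselves and show only that astrocyte RNA is present, were detected in all 18 libraries with summed levels of 379.8 to 437.2 FPKM. Since whole tissue was sequenced, fewer astrocytes and less RNA per astrocyte cannot be told apart.

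The members spanned a wide range of levels. Apoe, the main apolipoprotein of the brain, was the most abundant with a mean of 904 FPKM over 18 libraries, and Plcd4, a phospholipase C of the delta class, the least abundant with 3.46 FPKM. Below Apoe came Glul (347), Aldoc (247), Clu (242), Slc1a2 (236) and Mt3 (185 FPKM). Gfap ranked 24 of 33 with 14.5 FPKM and Vim ranked 25 with 10.6 FPKM, so both genes of the reactive state lay in the lower part of the list. Between neighbours in this order, the ranges over 18 libraries overlapped in 28 of 32 pairs. The exceptions were Apoe over Glul, Mt3 over Ttyh1, Ttyh1 over Slc1a3 and Pla2g7 over Cldn10, where the lowest library of the first gene was above the highest library of the second. Spread within groups was typical of genes at large, with a median coefficient of variation of 10.7% among members and 10.8% among all tested genes. Among the 30 members with a mean of at least 5 FPKM, however, the median was 10.5%, against 8.98% for all tested genes above that level. Gfap had the widest spread of all members with 32.3%, followed by Plcd4 with 25.1%, Gjb6 with 22.3%, Vim with 21.4% and Sox9 with 20.3%. The glutamate transporter gene Slc1a2 had the narrowest with 5.21%, and 14 of 33 members were under 10%.

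**Figure D1:**
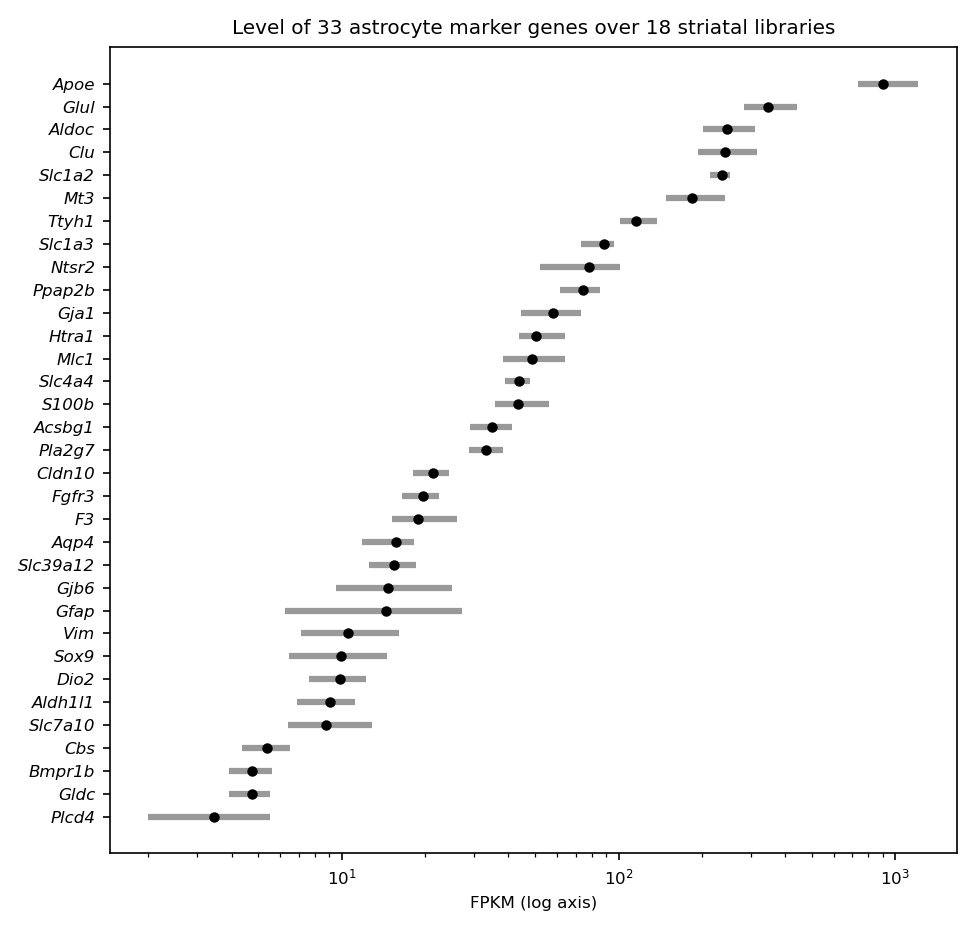
Level of each astrocyte marker gene in FPKM on a log axis, with the mean over 18 libraries as a point and the lowest to highest library as a bar, ordered by mean. The Gfap bar, from 6.25 to 27.3 FPKM, is the longest of the list in relative terms, and the Slc1a2 bar, from 215 to 253 FPKM, the shortest.

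None of the 33 members was called in any of the 7 comparisons made with limma. The comparisons were amphetamine against saline on day 1 (0 members, 0.00716% of all tested genes called), on day 7 (0 members, 0.0215%), on day 21 (0 members, 0%) and over the mean of the 3 days (0 members, 0.122%), the treatment by day interaction (0 members, 0%), and the day effect within saline libraries (0 members, 0.00716%) and within amphetamine libraries (0 members, 0%). At an unadjusted p under 0.05 there were 2 members on day 1 (F3 and Slc39a12), against 7.25% of all genes, 2 on day 7 (Sox9 and Plcd4), against 4.92%, none on day 21, against 5.5%, and 2 over the mean of days (F3 and Plcd4), against 5.36%. As 2 of 33 members are 6.06%, these shares were near those of all genes. On a single day the 95% interval extended by a median of 0.247 to either side of a member's difference, from 0.138 for Ttyh1 to 0.722 for Gfap. The interval lay wholly within 0.5 of zero for 24 members on day 1, for 26 on day 7, for 26 on day 21 and for 32 over the mean of days. It lay within 1 of zero for all members on days 7 and 21 and over the mean of days, and for 32 on day 1, where Gfap was the exception.

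**Figure D2:**
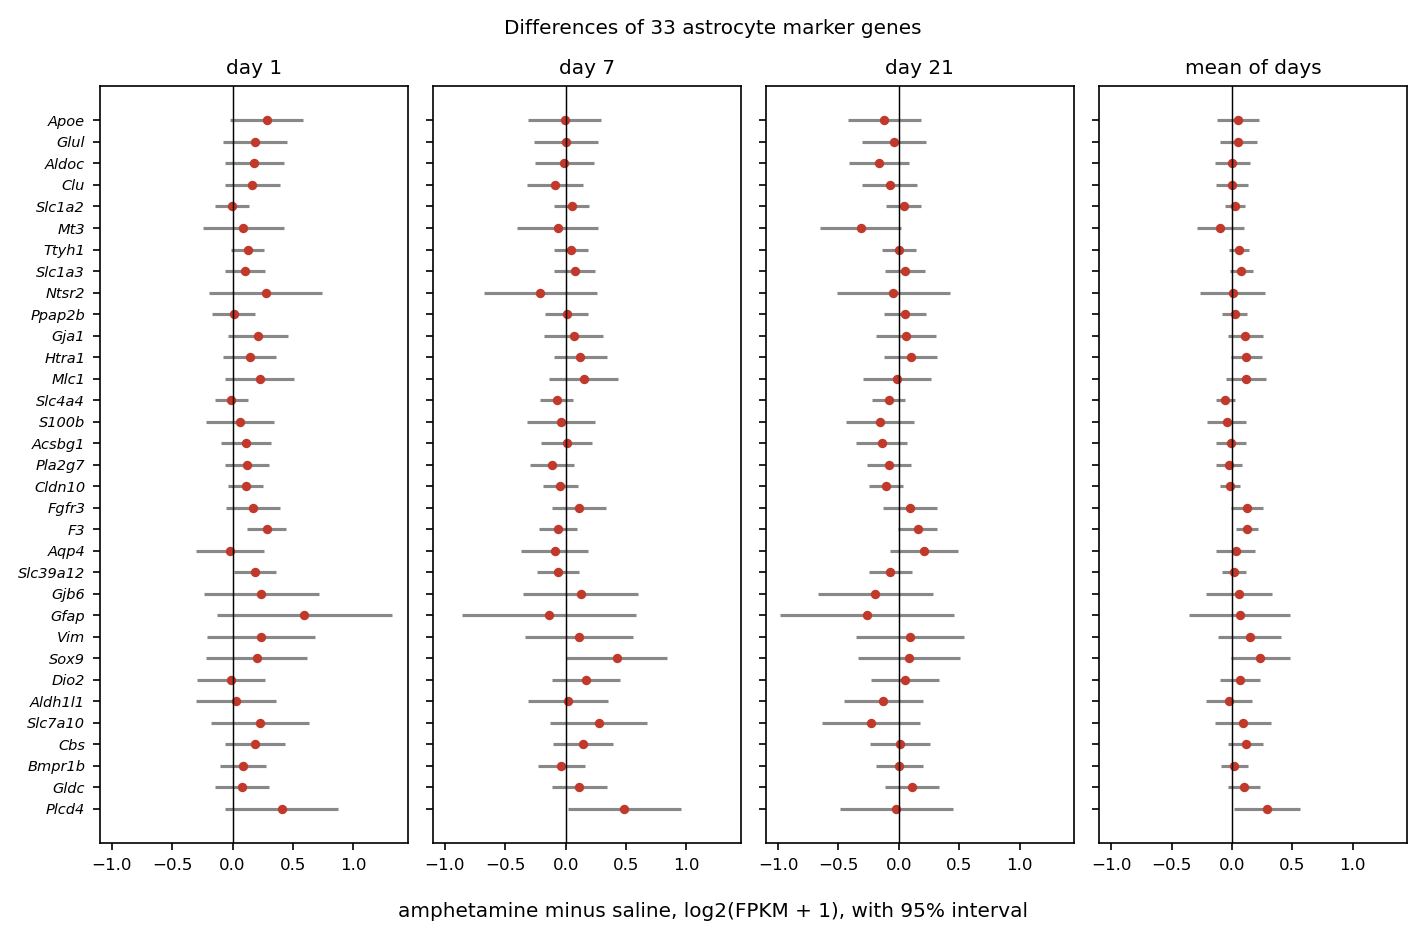
Amphetamine minus saline difference of each member on the log2(FPKM + 1) scale with its 95% interval from limma, on days 1, 7 and 21 and over the mean of days, ordered by mean level. On day 1, 29 of 33 points lie right of zero, and the Gfap interval, from −0.13 to 1.32, is the widest.

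Among the intermediate filament genes, Gfap, which encodes the filament protein that defines the reactive state in histology, had the largest day 1 difference of all members. Its FPKM was 16.8, 18.2 and 27.3 in amphetamine libraries of day 1, against 8.22, 15.6 and 17.3 in saline libraries of that day. The groups overlapped, since saline replicate 3 (17.3) was above amphetamine replicate 1 (16.8). Group means were 20.7 ± 5.69 and 13.7 ± 4.82 FPKM (SD, n = 3 each), and the log2 values differed by 0.59 ± 0.34 (SE, from limma; adjusted p = 0.680). This difference was 0.29 without saline replicate 1 and 0.39 without amphetamine replicate 3 of that day. On day 7 Gfap was 10.4, 22.4 and 9.99 FPKM in amphetamine libraries and 13.8, 13.9 and 16.7 FPKM in saline libraries. One amphetamine library (replicate 2) was above all saline libraries and the other two were below them, giving a difference of −0.14 ± 0.34, which was 0.03 without amphetamine replicate 1 and 0.06 without amphetamine replicate 3. On day 21 Gfap was 13.6, 12.5 and 6.25 FPKM in amphetamine libraries and 10.0, 12.4 and 15.6 FPKM in saline libraries. The difference was −0.26 ± 0.34 there, and 0.05 without amphetamine replicate 3, the lowest Gfap value of the series. Over the mean of days the Gfap difference was 0.07 ± 0.19 (limma adjusted p = 0.999).

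Vim, which encodes vimentin, overlapped between treatments on every day. It stood at 9.33, 11.1 and 16.1 FPKM in amphetamine libraries and 9.22, 11.2 and 9.51 FPKM in saline libraries on day 1. A single library, amphetamine replicate 3, was above the rest, and the difference of 0.23 ± 0.21 was 0.03 without it. Vim was 11.3, 10.6 and 7.29 FPKM in amphetamine libraries and 7.10, 11.3 and 8.47 FPKM in saline libraries on day 7. It was 9.91, 12.4 and 12.6 FPKM in amphetamine libraries and 9.40, 9.61 and 13.7 FPKM in saline libraries on day 21. The differences were 0.11 ± 0.21 and 0.10 ± 0.21 on these days, with −0.03 on day 7 without saline replicate 1. The day 21 difference was 0.01 without saline replicate 1, 0.02 without saline replicate 2, 0.04 without amphetamine replicate 3 and 0.05 without amphetamine replicate 2, against 0.20 without amphetamine replicate 1 and 0.26 without saline replicate 3. With all libraries Vim was among the members higher with amphetamine on all 3 days. Over the mean of days it was 0.15 ± 0.12 higher (limma adjusted p = 0.999).

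**Figure D3:**
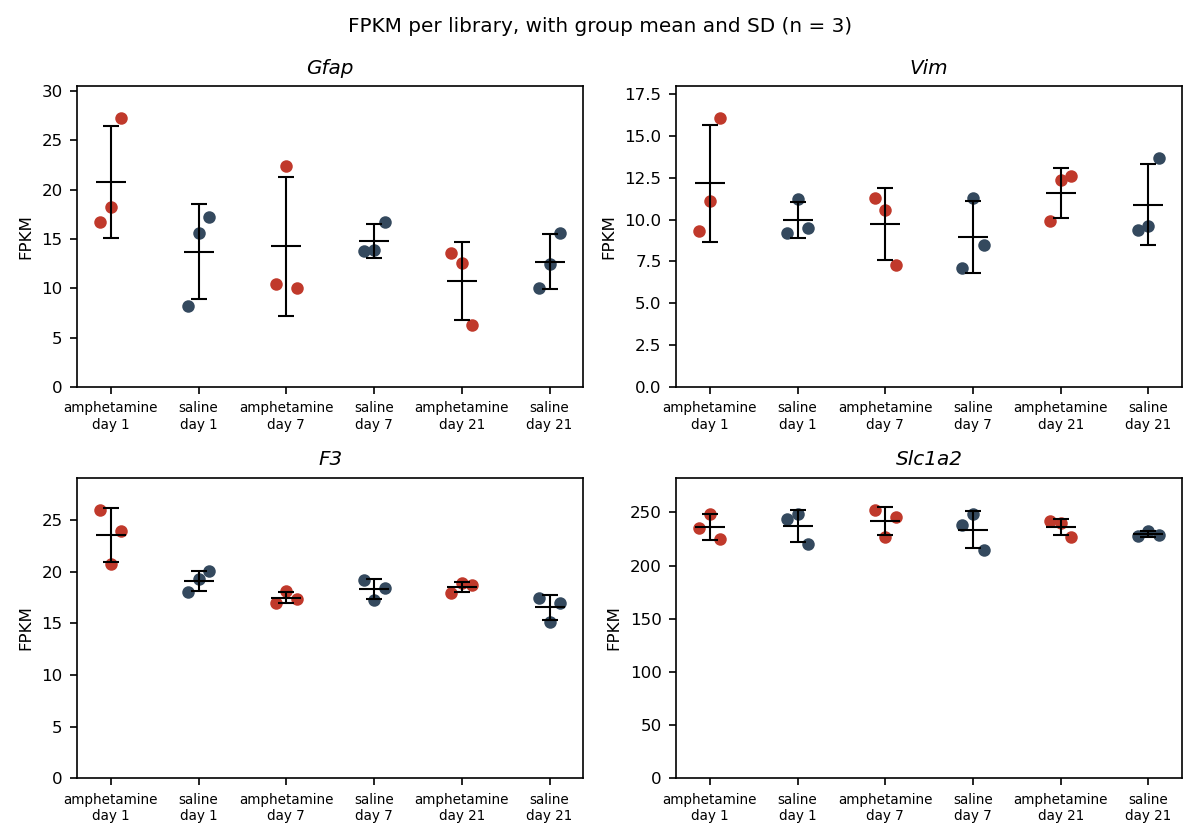
FPKM of Gfap, Vim, F3 and Slc1a2 in each library (points), with group mean and SD (bars, n = 3), amphetamine in red and saline in dark blue by day. Gfap and Vim overlap between treatments on every day, F3 is above saline in all 3 amphetamine libraries of days 1 and 21, and Slc1a2 stays between 215 and 253 FPKM.

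To set the reactive genes against the homeostatic ones within each library, the mean log2 deviation of Gfap and Vim from their own means was compared with that of the other 31. As a description without a test, the reactive minus homeostatic value was 0.212 ± 0.261 in amphetamine and −0.0592 ± 0.188 in saline libraries of day 1 (SD, n = 3 each). It was −0.061 ± 0.284 in amphetamine and 0.0004 ± 0.0611 in saline libraries of day 7, and −0.0725 ± 0.215 and −0.02 ± 0.215 in those of day 21. In each pair the difference between treatments was of the order of the SD or smaller. The highest value, 0.499, was that of amphetamine replicate 3 of day 1, and the lowest, −0.308, that of amphetamine replicate 3 of day 21. Around the group means Gfap and Vim were weakly related across the 18 libraries, with a Pearson r of 0.345 (permutation p = 0.210, adjusted p = 0.315 over 3 gene pairs) and a Spearman rho of 0.379 (permutation p = 0.190, adjusted p = 0.285). Without the 2 libraries farthest from the median of Gfap, r was 0.425. The numbers in the sample descriptions fall into 3 ranges, whose meaning the labels do not give. Within the 2 ranges that hold 7 libraries each, r was 0.0885 and 0.470, and the third holds 4, too few for a value.

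**Figure D4:**
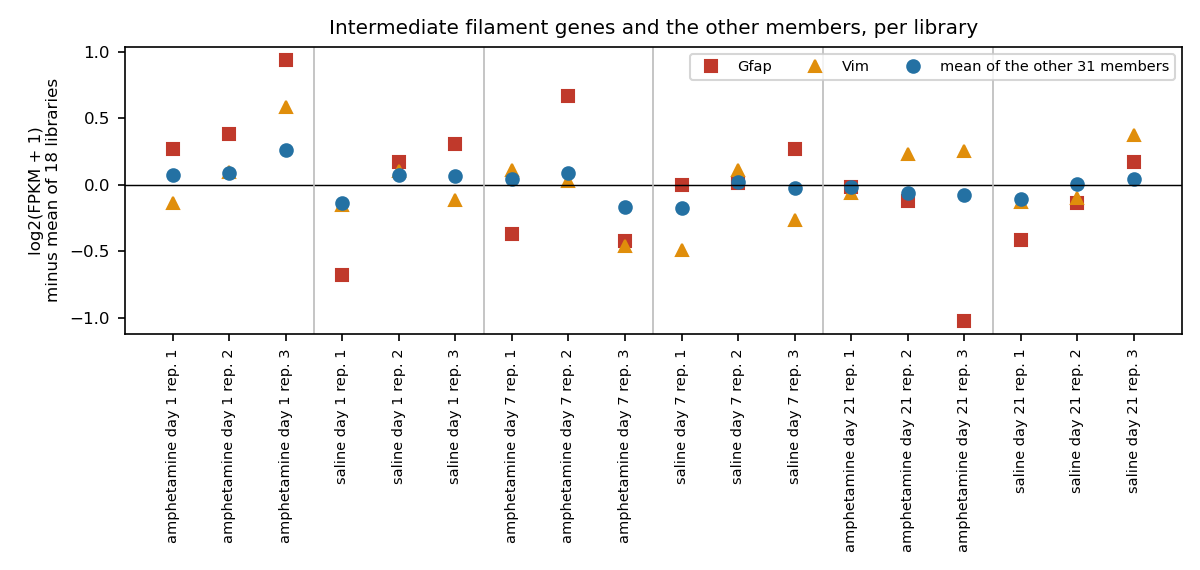
Deviation of Gfap (squares), Vim (triangles) and the mean of the other 31 members (circles) from the mean of 18 libraries, on the log2(FPKM + 1) scale, for each library. Amphetamine replicate 3 of day 1 is the highest library for all 3 measures, with 0.938 for Gfap, 0.587 for Vim and 0.263 for the others, and Gfap is lowest at −1.02 in amphetamine replicate 3 of day 21.

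The genes of glutamate and amino acid handling were higher with amphetamine in 3 of 4 members on day 1, 4 of 4 on day 7 and 2 of 4 on day 21. The shares of all tested genes were 64.0%, 51.6% and 43.1% on these days. Slc1a2 encodes the main glutamate transporter of forebrain astrocytes, and it stood at 235, 249 and 225 FPKM in amphetamine and 244, 248 and 220.4 FPKM in saline libraries of day 1. It was 253, 227 and 246 FPKM in amphetamine and 238, 249 and 215 FPKM in saline libraries of day 7, and 241, 240.2 and 227 FPKM in amphetamine and 228, 233 and 228 FPKM in saline libraries of day 21. All 3 pairs of groups overlapped, and the difference over the mean of days was 0.03 ± 0.04, with a 95% interval of −0.05 to 0.11. Slc1a3, the second glial glutamate transporter gene, ran from 90.3 to 96.3 FPKM in amphetamine libraries and from 85.6 to 89.5 FPKM in saline libraries of day 1, groups that did not overlap, with a difference of 0.10 ± 0.08. No relation between these transporter genes around the group means was detected (Pearson r −0.104, permutation p = 0.819, adjusted p = 0.819; Spearman rho −0.0939, permutation p = 0.789, adjusted p = 0.789). That r was 0.0523 without the 2 libraries farthest from the median of Slc1a2, and −0.0325 and −0.0565 within the 2 ranges of description numbers.

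Glul, which encodes the glutamine synthetase that completes this cycle, was 384, 375 and 442 FPKM in amphetamine and 288, 374 and 401 FPKM in saline libraries of day 1. It was 339, 368 and 284 FPKM in amphetamine and 297, 348 and 339 FPKM in saline libraries of day 7, and 335, 321 and 329 FPKM in amphetamine and 303, 357 and 353 FPKM in saline libraries of day 21. The groups overlapped on each day, with differences of 0.19, 0.01 and −0.04 on days 1, 7 and 21. Slc7a10, a carrier of small neutral amino acids such as serine and glycine, was among the 3 highest members on day 7 and the 3 lowest on day 21. It was 9.71, 12.9 and 7.98 FPKM in amphetamine and 7.17, 7.75 and 9.63 FPKM in saline libraries of day 7 (difference 0.27 ± 0.19), and 7.45, 6.44 and 8.24 FPKM in amphetamine and 6.38, 10.7 and 9.81 FPKM in saline libraries of day 21 (−0.23 ± 0.19). Both pairs of groups overlapped.

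Of the 5 genes of water, ion and zinc transport, 3 were higher with amphetamine on day 1, 2 on day 7 and 2 on day 21 (64.0%, 51.6% and 43.1% of all genes). Aqp4, the water channel gene of the endfeet, was 14.6, 16.6 and 15.8 FPKM in amphetamine and 17.8, 14.8 and 15.2 FPKM in saline libraries of day 1. It had the largest positive difference of all members on day 21, 0.21 ± 0.13 (limma adjusted p = 0.874), with 17.4, 18.2 and 15.03 FPKM in amphetamine and 15.2, 11.8 and 16.7 FPKM in saline libraries. The groups overlapped there too. Slc4a4, a sodium bicarbonate cotransporter gene, was the one member lower with amphetamine on all 3 days, by −0.01, −0.07 and −0.08 on days 1, 7 and 21 (1 of 33, 3.03%, against 8.14% of all genes). Its FPKM was 43.8, 44.7 and 41.4 in amphetamine and 43.9, 44.0 and 42.7 in saline libraries of day 1, 42.5, 43.7 and 45.6 in amphetamine and 46.8, 47.7 and 44.5 in saline libraries of day 7, and 43.2, 40.0 and 39.9 in amphetamine and 39.0, 47.7 and 44.4 in saline libraries of day 21. The groups overlapped on each day. Slc39a12, a zinc transporter gene, was 17.01, 18.04 and 18.6 FPKM in amphetamine and 14.8, 16.1 and 15.8 FPKM in saline libraries of day 1, without overlap (difference 0.19 ± 0.08, unadjusted p = 0.0390, limma adjusted p = 0.674). Ttyh1, a membrane protein proposed to act as a chloride channel, was 120.2, 120.3 and 137 FPKM in amphetamine and 114, 118 and 114 FPKM in saline libraries of day 1, also without overlap. Mlc1, whose human counterpart is mutated in a leukoencephalopathy with subcortical cysts, had differences of 0.22, 0.15 and −0.01 on days 1, 7 and 21.

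All 3 junction protein genes were higher with amphetamine on day 1, as were 64.0% of all tested genes. Gja1 and Gjb6 encode the connexins that form astrocyte gap junctions, and Cldn10 encodes a claudin. Gja1 was 60.3, 67.4 and 73.0 FPKM in amphetamine libraries of day 1, all above the 59.0, 55.2 and 58.3 FPKM of saline libraries, a difference of 0.21 ± 0.12 (limma adjusted p = 0.676), and it overlapped between treatments on days 7 and 21. Gjb6 was 17.3, 17.1 and 24.98 FPKM in amphetamine and 12.7, 17.2 and 20.2 FPKM in saline libraries of day 1, with overlap. Around the group means the connexin genes varied together, with a Pearson r of 0.743 across 18 libraries (permutation p = 0.00591, adjusted p = 0.0177 over the 3 pairs) and a Spearman rho of 0.670 (permutation p = 0.0152, adjusted p = 0.0455). The r was 0.611 without the 2 libraries farthest from the median of Gja1, amphetamine replicate 3 and saline replicate 1 of day 7, and 0.796 and 0.680 within the 2 ranges of description numbers that hold 7 libraries each. The 2 libraries left out had the lowest value of the series for 8 and 9 of the 33 members. Whether the relation is particular to the connexins was not tested. What such libraries share beyond the connexins (depth or the share of astrocyte RNA) was not tested either.

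The 6 metabolic enzyme genes had day 1 differences with a median of 0.09. Aldoc, the brain aldolase of glycolysis, was 271, 248 and 312 FPKM in amphetamine and 202, 275 and 258 FPKM in saline libraries of day 1, 253, 251 and 214 FPKM in amphetamine and 220.1, 245 and 257 FPKM in saline libraries of day 7, and 227, 217 and 238 FPKM in amphetamine and 236, 272 and 256 FPKM in saline libraries of day 21. The groups overlapped on each day, and the day 21 difference was −0.16 ± 0.12. Dio2, which encodes the deiodinase that activates thyroid hormone in glia, was 9.23, 11.9 and 10.5 FPKM in amphetamine and 8.998, 10.7 and 12.2 FPKM in saline libraries of day 1, a difference of −0.01 ± 0.13. Gldc, of the glycine cleavage system, was 4.90, 4.96 and 5.15 FPKM in amphetamine and 4.26, 4.01 and 5.52 FPKM in saline libraries of day 21 and had the third largest positive difference of that day, 0.11 ± 0.11. Aldh1l1 (folate metabolism), Acsbg1 (an acyl-CoA synthetase) and Cbs (cystathionine synthesis) had day 1 differences of 0.03, 0.11 and 0.19.

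Lipid handling and signalling enzymes were higher with amphetamine in 5 of 5 members on day 1, 2 of 5 on day 7 and 1 of 5 on day 21. The share of all tested genes that were higher also fell over these days, from 64.0% to 51.6% and 43.1%. Apoe was 993, 899.7 and 1213 FPKM in amphetamine libraries of day 1, all above the 759.9, 884 and 896 FPKM of saline libraries, replicate 2 (899.7) by a narrow margin. The difference was 0.28 ± 0.14 (limma adjusted p = 0.674). Apoe was 899.6, 914 and 796 FPKM in amphetamine and 733, 819.9 and 1108 FPKM in saline libraries of day 7, and 849, 781 and 937 FPKM in amphetamine and 891, 990.3 and 908 FPKM in saline libraries of day 21, with overlap on both days. Clu, which encodes the extracellular chaperone clusterin, was 259.6, 250.015 and 316 FPKM in amphetamine and 217, 272 and 246 FPKM in saline libraries of day 1. It was 235, 224 and 193 FPKM in amphetamine and 205, 248 and 241 FPKM in saline libraries of day 7, and 229, 232 and 241 FPKM in amphetamine and 242, 261 and 238 FPKM in saline libraries of day 21. Its groups overlapped on each day, and its difference over the mean of days was 0.00 ± 0.06. Plcd4 had the largest difference over the mean of days, 0.29 ± 0.13 (unadjusted p = 0.0367, limma adjusted p = 0.921), and the largest on day 7, 0.49 ± 0.22 (limma adjusted p = 1). It was 4.05, 4.19 and 5.15 FPKM in amphetamine and 2.54, 2.91 and 4.004 FPKM in saline libraries of day 1, without overlap, 4.04, 5.501 and 3.07 FPKM in amphetamine and 2.22, 4.02 and 1.9995 FPKM in saline libraries of day 7, and 3.59, 3.58 and 2.14 FPKM in amphetamine and 2.74, 3.00 and 3.59 FPKM in saline libraries of day 21. It was also the lowest expressed member. Pla2g7, an enzyme that inactivates platelet-activating factor, was 28.8, 31.3 and 30.3 FPKM in amphetamine and 29.7, 33.2 and 35.2 FPKM in saline libraries of day 7 (−0.11 ± 0.08), and the lipid phosphatase gene Ppap2b had differences of 0.01, 0.01 and 0.05 on the 3 days.

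Of the receptor and surface protein genes, F3, which encodes the coagulation initiator tissue factor, had the smallest p of all members. Its FPKM was 26.0, 20.8 and 23.9 in amphetamine libraries of day 1, all above the 18.1, 19.2 and 20.0 of saline libraries, with means of 23.5 ± 2.63 and 19.1 ± 0.981 (SD, n = 3 each) and a difference of 0.28 ± 0.07 (unadjusted p = 0.0019, limma adjusted p = 0.572). On day 7 F3 was 16.96, 18.1 and 17.4 FPKM in amphetamine and 19.2, 17.3 and 18.4 FPKM in saline libraries, with overlap. On day 21 it was 17.9, 18.9 and 18.7 FPKM in amphetamine libraries, all above the 17.4, 15.2 and 16.98 FPKM of saline libraries (difference 0.16 ± 0.07, limma adjusted p = 0.869). F3 was the one member with an unadjusted p under 0.05 in the treatment by day interaction (unadjusted p = 0.0167, limma adjusted p = 0.773), a share of 3.03% against 6.25% of all genes. Ntsr2, a neurotensin receptor gene, had the lowest difference of all members on day 7, −0.21 ± 0.22, with 82.5, 94.6 and 51.9 FPKM in amphetamine and 63.6, 97.6 and 101 FPKM in saline libraries. The wide overlap came with the lowest Ntsr2 value of the series, 51.9 FPKM, in amphetamine replicate 3. Fgfr3, a fibroblast growth factor receptor gene, was higher with amphetamine on all 3 days, by 0.17, 0.11 and 0.09, and the morphogen receptor gene Bmpr1b had differences of 0.09, −0.03 and 0.00.

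The remaining members are a transcription factor, a calcium-binding protein, a metallothionein and a secreted protease. Sox9, the transcription factor of astrocyte identity, was 11.4, 11.9 and 8.69 FPKM in amphetamine and 7.89, 8.73 and 6.47 FPKM in saline libraries of day 7. One saline value, 8.73, was above the lowest amphetamine value, and the difference was 0.42 ± 0.20 (unadjusted p = 0.0490, limma adjusted p = 1). Over the mean of days Sox9 was 0.24 ± 0.11 higher (limma adjusted p = 0.939). S100b, the calcium-binding protein gene used as an astrocyte and serum marker, was 42.2, 38.5 and 41.4 FPKM in amphetamine libraries of day 21, all below the 43.5, 45.4 and 47.3 FPKM of saline libraries, with a difference of −0.15 ± 0.13 (limma adjusted p = 0.878). Mt3, the brain metallothionein that binds zinc and copper, had the lowest day 21 difference, −0.31 ± 0.16 (limma adjusted p = 0.869), with 161, 175 and 149 FPKM in amphetamine and 159.8, 226 and 223 FPKM in saline libraries. Saline replicate 1 lay among the amphetamine values. On day 1 Mt3 was 190.3, 166 and 242 FPKM in amphetamine and 160.2, 182 and 218 FPKM in saline libraries, and on day 7 it was 196, 175 and 154 FPKM in amphetamine and 192, 173 and 182 FPKM in saline libraries. Htra1, a secreted serine protease gene, had differences of 0.14, 0.12 and 0.10 on the 3 days.

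Seen as a list, the members leaned upward on day 1. On that day 29 of 33 were higher with amphetamine, with a median difference of 0.17, while 64.0% of all tested genes were higher and their median was 0.05. After median-of-ratios scaling of the libraries 27 of 33 members and 49.6% of all genes were higher, with medians of 0.11 and 0, and after quantile normalization 27 of 33 and 50.3%, with medians of 0.10 and 0.00. In 7 members all amphetamine libraries lay above all saline libraries (Slc1a3, Gja1, F3, Apoe, Ttyh1, Plcd4 and Slc39a12; 21.2%, against 7.73% of all genes), and in 0 members all lay below (against 2.9%). The day 1 median was 0.08, with 27 of 33 members higher, without amphetamine replicate 3, and was likewise 0.08 with 27 of 33 higher without saline replicate 1. That saline library is also the one library of day 1 whose description number falls in another of the 3 number ranges, so these last values are those within 1 range, and the day 1 median was 0.12 with the range as a covariate. On days 7 and 21 the amphetamine and saline groups were spread over the ranges alike. Amphetamine replicate 3 of day 1 had the highest value of the series for 20 of 33 members and was above the member's own median for 31 of 33. Saline replicate 1 of day 1 was above the median for 7 of 33 and had the lowest value for 5. Such libraries were also found on other days, as amphetamine replicate 3 of day 7 was above the median for 3 of 33 members and saline replicate 1 of that day for 6.

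**Figure D5:**
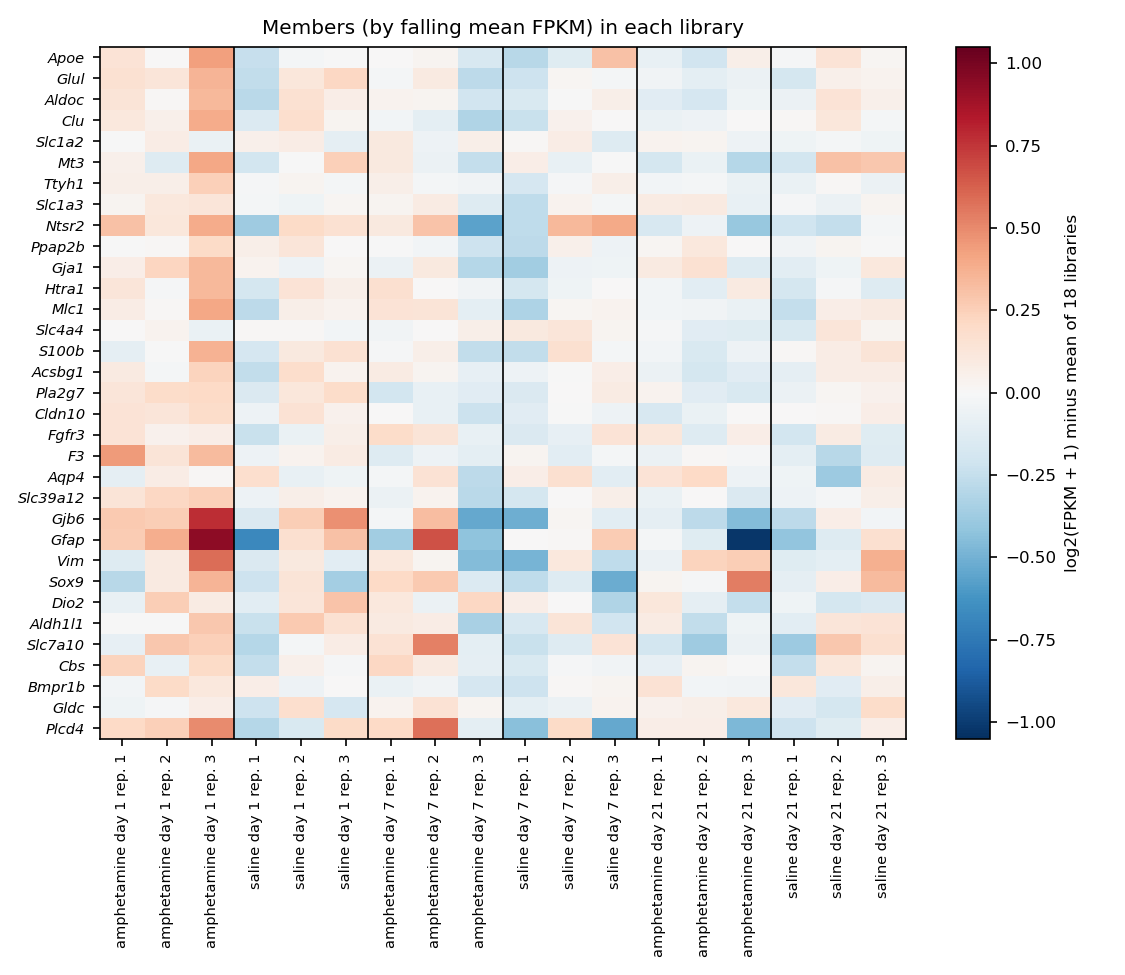
Deviation of each member from its mean over 18 libraries on the log2(FPKM + 1) scale (colour), with members by falling mean level down the page and libraries by day across it, amphetamine left of saline. The red column of amphetamine replicate 3 of day 1, highest for 20 of 33 members, and the blue columns of amphetamine replicate 3 and saline replicate 1 of day 7, lowest for 8 and 9 members, cut across the treatments.

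Markers of other cells were also compared between the day 1 groups, where 64.0% of all tested genes were higher with amphetamine. On day 1, 9 of 9 oligodendrocyte markers were higher with amphetamine (median 0.25), and their summed level ran from 1896 to 3079 FPKM in amphetamine and from 1386 to 2382 FPKM in saline libraries, with the highest sum in amphetamine replicate 3 and the lowest in saline replicate 1. Choroid plexus markers, of which 3 of 5 were tested and 3 were higher (median 0.52), summed to 26.6 to 102 FPKM in amphetamine and 10.7 to 19.9 FPKM in saline libraries of day 1, with the highest sum of each treatment in replicate 1 (102 FPKM with amphetamine and 19.9 FPKM with saline) and a sum of 53.9 FPKM in amphetamine replicate 3. In this list Folr1 and Kcnj13 were at 0 in 3 and 4 of the 18 libraries. Ependymal markers (4 of 4 tested higher, median 0.41) summed to 10.8 to 29.3 FPKM in amphetamine and 10.2 to 14.7 FPKM in saline libraries of day 1, and 3 of them (Ccdc153, Tmem212 and Dynlrb2) were at 0 in 2 of the 18 libraries each. Microglial markers, 5 of 7 higher, summed to 98.1 to 114 FPKM in amphetamine and 92.4 to 105 FPKM in saline libraries of day 1. Pan-neuronal markers, 2 of 5 higher, summed to 1315 to 1360.3 FPKM in amphetamine and 1329.9 to 1425 FPKM in saline libraries of that day. Higher markers numbered 4 of 5 for oligodendrocyte precursors (median 0.23), 2 of 2 tested for blood (0.28) and 4 of 5 for endothelium (0.09). For projection neurons 6 of 8 were higher (0.10), and for septal and pallidal neurons 3 of 4 (0.12). Mural markers were higher in 2 of 4 (0.04). Of the cortical glutamatergic neuron markers 3 of 5 were tested and 1 was higher (median −0.60). Slc17a7 of that list ran from 1.29 to 48.4 FPKM over 18 libraries. By comparison, 3 of the 5 astrocyte-defining members were higher on day 1, with a median of 0.03. The part of these cell types in the day 1 differences of the members was not tested.

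The counts were closer to those of all genes on the later days. On day 7, 19 of 33 members were higher with amphetamine (median 0.01, against 51.6% of all genes and a median of 0.00). Leaving out amphetamine replicate 3 of day 7 gave 29, and leaving out saline replicate 1 of that day gave 10. No member had separated groups on that day in either direction, against 5.45% of all genes above and 4.86% below. On day 21, 15 of 33 were higher (median −0.02, against 43.1% of all genes and a median of −0.02), and the members with separated groups were F3 above saline (1 of 33, 3.03%, against 4.76% of all genes) and S100b below it (1 of 33, 3.03%, against 7.51%). Over the mean of days 26 of 33 members were higher, with a median of 0.05, against 55.6% of all genes and a median of 0.01. Of the members, 10 were higher with amphetamine on each of the 3 days (Vim, Slc1a3, Gja1, Sox9, Fgfr3, Ttyh1, Ppap2b, Htra1, Cbs and Gldc; 30.3%, against 13.1% of all genes).

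Within amphetamine libraries the members were lower on the later days than on day 1, again without any call. On day 7, 28 of 33 were lower than on day 1 (median −0.16), against 65.0% of all genes (median −0.05). On day 21, 29 of 33 were lower than on day 1 (median −0.17), against 59.4% of all genes (median −0.03). These comparisons share the day 1 amphetamine libraries with each other and with the day 1 contrast. Without amphetamine replicate 3 of day 1 the medians were −0.06 and −0.11, and the day 7 median was −0.07 without amphetamine replicate 3 of day 7. After median-of-ratios scaling 24 and 27 of 33 members were lower on days 7 and 21 than on day 1, against 49.5% and 49.4% of all genes. The medians were then −0.10 and −0.13 for the members and 0 and 0.0003 for all genes. The day effect within amphetamine libraries had an unadjusted p under 0.05 for 7 members (Gfap, Gjb6, F3, Clu, Cldn10, Slc39a12 and Pla2g7; 21.2%, against 11.2% of all genes), with a smallest limma adjusted p of 0.242, for F3. The difference of F3 on day 7 from day 1 was −0.40 ± 0.07 (limma adjusted p = 0.169). All 3 amphetamine libraries of day 1 carry description numbers of 1 range and those of day 7 carry numbers of the other two, so day and number range cannot be told apart in the comparison of day 7 with day 1. In the day effect within saline libraries F3 was the one member with an unadjusted p under 0.05 (3.03%, against 5.95% of all genes). The saline medians relative to day 1 were −0.06 on day 7 (24 of 33 lower) and −0.003 on day 21 (19 of 33 lower). The share of all genes was not set beside these saline counts, so they cannot be read as a trait of the members.

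Other astrocyte genes were set beside the members, in lists chosen with earlier results of these data known. Of all tested genes 64.0% were higher on day 1, 51.6% on day 7, 43.1% on day 21 and 55.6% with the days averaged. Of 40 further astrocyte-enriched genes 39 were tested, with 36 higher on day 1 (median 0.17), 18 on day 7 (−0.01), 16 on day 21 (−0.03) and 27 with the days averaged (0.05), and 0 were called. The most abundant of them, Cst3, which encodes the protease inhibitor cystatin C, was 914, 782 and 1112 FPKM in amphetamine and 758, 873 and 854 FPKM in saline libraries of day 1. Sparcl1, a secreted synaptogenic protein gene, Ldhb, a lactate dehydrogenase gene, and Id4, a transcriptional inhibitor, had day 1 differences of 0.18, 0.13 and −0.08. A list of genes known from reactive astrocytes had 33 members, of which 21 were below the level tested and 12 were tested, with 9 higher on day 1 (median 0.08), 6 on day 7, 6 on day 21 and 0 called. On day 21, 3 of the 12 (Serpina3n, H2-D1 and Hspb1) had all amphetamine libraries below all saline libraries, against 7.51% of all genes. In 1 of the 12 (Amigo2) all lay above, against 4.76% of all genes. The most abundant gene of this reactive list was the serine protease inhibitor Serpina3n. It was 21.4, 20.6 and 25.1 FPKM in amphetamine and 14.1, 19.9 and 21.0 FPKM in saline libraries of day 1. On day 7 it was 2.08, 21.4 and 11.8 FPKM in amphetamine and 13.4, 16.4 and 19.3 FPKM in saline libraries, with overlap. On day 21 it was 18.1, 9.502 and 7.66 FPKM in amphetamine and 18.4, 18.6 and 19.05 FPKM in saline libraries. Its differences of −0.84 on day 7 and −0.71 on day 21 were the lowest of the 12 genes. S100a10, which encodes an annexin-binding protein, was 34.9, 20.6 and 22.5 FPKM in amphetamine and 5.61, 18.4 and 6.12 FPKM in saline libraries of day 1. The groups did not overlap, and the difference of 1.44 ± 0.40 did not pass (unadjusted p = 0.00295, limma adjusted p = 0.572). On day 21 S100a10 was 13.5, 6.92 and 6.02 FPKM in amphetamine and 18.4, 8.02 and 17.1 FPKM in saline libraries, with overlap. H2-D1, a class I histocompatibility gene, and Stat3, a transcription factor of the reactive response, had day 1 differences of 0.37 ± 0.12 and 0.15 ± 0.09 (limma adjusted p = 0.655 and 0.684).

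Paralogues of the members, a list of genes mostly with related sequence (Apod is related by name only) and often other cell types, had 25 of 31 genes tested. With amphetamine 21 were higher on day 1 (median 0.16), 11 on day 7 (−0.02) and 8 on day 21 (−0.06), and 0 were called. Of all tested genes 64.0%, 51.6% and 43.1% were higher on these days. The most abundant were Aldoa, the aldolase of many cell types, with 544, 484 and 591 FPKM in amphetamine and 449, 561 and 548 FPKM in saline libraries of day 1, and the metallothionein gene Mt1, with 256, 247 and 346 FPKM in amphetamine and 219, 259.5 and 261 FPKM in saline libraries of day 1. Their groups overlapped. Nefl, a neurofilament gene, and Mt2, another metallothionein gene, had day 1 differences of 0.19 and 0.13.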

How the data were processed

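PolyA RNA of the striatum was sequenced in 18 libraries, 3 in each of 6 groups given by the titles. The authors deposited FPKM values for 29942 gene names, with 0 columns of other samples. The submitters' processing notes name Bowtie and build mm9. Versions, quantifying program, annotation and strand handling are not stated in the sources used here, so reads of overlapping genes may not be told apart. Because FPKM were given, count models were not used. Low values were whole multiples of a step within a tolerance of 0.05 for 87.8% of the values of 1613 low genes, and in all libraries for 69.0% of those genes, which gave relative depth but not reads. The sum of FPKM per library was 533020 to 682270, and precision is given by the spread between libraries.

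log2(FPKM + 1) values of 13975 genes (mean FPKM 1 or more) were fitted in limma (version 3.58.1) under R (version 4.3.3), with 1 mean per group, a mean-variance trend, 12 residual and 2.26 prior degrees of freedom, and two-sided p-values with Benjamini-Hochberg adjustment, called under 0.05. Gene pairs were correlated across libraries after removal of group means, with 100000 permutations, two-sided. The members and lists were chosen with earlier results of these data known. Members named with values in every library are Gfap, Vim, the 6 most abundant, and the 3 highest and 3 lowest of each amphetamine contrast (in the contrast concerned); of other lists, the 4 most abundant genes. Members with separated groups, and genes of the reactive list with separated groups on day 21, were added after their values were seen. The fit was tested on simulated data in which 200 of 13975 genes were changed. Equal numbers were changed by 1 and by 0.5 on the log2 scale. Changes of 1 were found in 88.3% (day 1), 89.7% (day 7), 89.3% (day 21) and 95.3% (mean of days) of the genes so changed. Changes of 0.5 were found in 54.3%, 54.3%, 55% and 84.3%. In the real data 1, 3, 0 and 17 genes were called in these comparisons. The adjusted threshold is stricter when fewer genes are called, so these shares do not carry over to the real data. Shifts of many genes together in a library, such as amphetamine replicate 3 of day 1, were not simulated either. Alternatives were another pseudocount, 2 other filters, median-of-ratios scaling, quantile normalization, a replicate block, the range of description numbers as a covariate, fits to single days and leaving out each library. Counts of members higher under scaling and leaving out were added after the data were seen. Libraries were not paired by replicate number in the main fit. Figures were drawn with matplotlib (version 3.10.9).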

Additional observations from a re-analysis of the deposited data

How the results depend on the processing

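The count of members called was 0 in each of the 7 comparisons under each alternative run. Among 607 alternative values for 28 results, 10 single-gene differences and correlations changed sign and 5 counts moved by over 1.5 times. Without single libraries the median difference of the members ran from 0.081 to 0.209 on day 1, from −0.045 to 0.0683 on day 7 and from −0.088 to 0.0226 on day 21, so the medians of days 7 and 21 had no stable sign, and the Vim difference ran from 0.0313 to 0.394 on day 1 and from 0.00781 to 0.258 on day 21. The correlation of Slc1a2 and Slc1a3 was 0.0396 after median-of-ratios scaling and ran from −0.366 to 0.0461 when single libraries were left out, against −0.104 with all. Leaving out single libraries gave Gfap differences of −0.0527 to 0.171 over the mean of days, −0.49 to 0.0556 on day 7 and −0.449 to 0.0547 on day 21, and Vim differences of −0.0289 to 0.285 on day 7. The number of members higher on day 7 ran from 10 to 29 (44.5% and 54.1% of all genes in these settings). Those higher on day 7 than on day 1 in amphetamine libraries numbered 9 after median-of-ratios scaling, against 5 (49.9% and 34.4% of all genes). The cause was not tested. Same-numbered libraries of a day were correlated around their group means by −0.0853 to 0.145, above 0.1 in 3 of 9 pairs. They also fell in the same range of description numbers, except for replicate 1 of day 1. What such libraries share was not tested. With the replicate number as a block, 0 members were called, the day 1 median was 0.165, and 1, 0, 0 and 8 of all genes were called on days 1, 7 and 21 and in the mean of days, against 1, 3, 0 and 17 without it. With 3 libraries a group, the 95% intervals extended by a median of 0.247 on a single day and by 0.722 for Gfap. A difference of that size matches an unadjusted limma p of 0.05 and not the adjusted threshold. Differences beyond their interval width, such as that of F3 on day 1 (0.28, interval 0.12 to 0.44), were also not called.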
